A study of Mus musculus with 12 samples.

Results

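Shank1 to Shank3, Homer1 to Homer3 and Dlgap1 to Dlgap4 are the genes of the 3 scaffold families that stack beneath the receptors of excitatory synapses. They were chosen by family name, and all 10 were found among the 21492 genes of the deposited table. All 10 passed the filter on low values in every comparison. The study sequenced total RNA from synaptosomes, the pinched-off nerve terminals and spine heads obtained by fractionating tissue, prepared from striatum. All mice were C57BL/6J males, taken on postnatal day 70. RNA came from the synaptosomal input or from its polysomes, the ribosome-loaded messages. The 4 groups of 3 libraries each were Shank3 transgenic (TG) input, wild-type (WT) input, TG polysome and WT polysome. No drug treatment is given for any group. Nothing in the sources used here gives the transgene's construct, promoter or copy number, or says whether animals were pooled. The labels number the libraries 1 to 3 in each group. In the column headers of the deposited table the input and polysome libraries of a genotype and number share a name, such as TG1. TG and WT libraries share the number alone. Neither labels nor headers tie the libraries to separate animals. The p-values therefore reflect only how far these libraries varied, which may be technical.

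At an excitatory synapse the Dlgap proteins (also called SAPAP or GKAP) bind the membrane-near Dlg scaffolds, of which Dlg4 encodes PSD-95. Shank proteins bind the far end of Dlgap proteins through a PDZ domain and form the deeper layer of the postsynaptic density, where a proline-rich stretch binds Homer proteins. Homer proteins couple group I metabotropic glutamate receptors and calcium release channels to that layer. Shank3 and Dlgap3 (SAPAP3) are known for their prominence in the striatum, and mice lacking either gene groom themselves excessively.

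The first set of sequences shows the link from Shank to Homer. It gives part of the coding strand of each Shank gene (GRCm38, GENCODE M21 models, all on the plus strand), from chr7:44353560-44353616 in Shank1, chr7:144411105-144411161 in Shank2 and chr15:89549182-89549238 in Shank3. Capitals mark the codons for proline, proline, any residue, any residue and phenylalanine, the pattern that Homer proteins bind.
Shank1: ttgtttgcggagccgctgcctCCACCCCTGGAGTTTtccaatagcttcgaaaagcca
Shank2: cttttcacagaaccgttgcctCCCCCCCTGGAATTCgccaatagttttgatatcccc
Shank3: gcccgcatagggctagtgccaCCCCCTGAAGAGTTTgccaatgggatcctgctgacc
The longest Shank2 and Shank3 transcripts each hold 2 matches and that of Shank1 holds 1, and the matches shown are those most alike between the genes. Of 3 complete Shank3 coding transcripts, 2 hold a match. Over these 57 bases Shank1 and Shank2 shared 40, Shank1 and Shank3 shared 27, and Shank2 and Shank3 shared 29. The pattern is common in long genes: of 443 genes with 5000 to 7000 coding bases, 119 (26.9%) held it.

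The second set shows the link from Dlgap to Shank. It gives the last 45 coding bases before the stop codon of each Dlgap gene, all on the plus strand, from chr17:70818187-70818231 in Dlgap1, chr8:14846661-14846705 in Dlgap2, chr4:127236321-127236365 in Dlgap3 and chr2:156762856-156762900 in Dlgap4. Capitals mark the last 4 codons, for glutamine, threonine, arginine and leucine, which the Shank PDZ domain binds.
Dlgap1: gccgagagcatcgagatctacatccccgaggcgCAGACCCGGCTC
Dlgap2: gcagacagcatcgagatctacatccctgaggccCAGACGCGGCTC
Dlgap3: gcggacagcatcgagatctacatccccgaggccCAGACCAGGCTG
Dlgap4: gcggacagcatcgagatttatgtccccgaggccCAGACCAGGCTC
These ends were alike, with 38 to 41 of the 45 bases shared by any pair. Among 21778 genes, 4 (0.0184%) ended with these residues, and all 4 were the Dlgap genes.

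Homer1 makes a long form that ties partners together and a short form, known as Homer1a, that lacks the coiled coil and is induced by neuronal activity. The 61 bases around the point where the 2 coding sequences part show why 1 value per gene cannot separate them. They start at chr13:93356050 (GRCm38, plus strand), and capitals mark the part that differs.
Homer1 short: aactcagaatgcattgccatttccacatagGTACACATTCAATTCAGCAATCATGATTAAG
Homer1 long: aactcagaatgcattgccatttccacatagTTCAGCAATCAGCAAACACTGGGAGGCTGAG
The short form's 558 coding bases and the long form's 1062 share their first 527. The Homer1 values below sum all forms.

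Values are the authors' normalized counts per gene, which are estimated counts scaled between libraries. The values of an input library summed to between 95483444 and 112557136, and those of a polysome library to between 62184460 and 74290309. A call means an adjusted p under 0.05 in limma over all genes tested, on log2(value + 1). Medium spiny neuron markers were plentiful and none of the 15 was at 0 in any library. Ppp1r1b, which encodes DARPP-32, had 12285 to 33763 in TG input and 12756 to 33032 in WT input libraries, with 18352 to 41901 in TG polysomes and 16075 to 46748 in WT polysomes. The cortical marker Slc17a7, which encodes a vesicular glutamate transporter, was high as well, with 22905 to 122010 over the 12 libraries. Its source in these libraries was not tested. Astrocyte and oligodendrocyte markers were plentiful too, and none was at 0 in any library. Over the 12 libraries the 8 astrocyte markers summed to between 246967 and 447899 and the 8 oligodendrocyte markers to between 233557 and 432437. The 15 medium spiny neuron markers summed to between 259625 and 645982. Same-numbered libraries of different groups deviated together, so a fit with the number as a block is given wherever it changes a call. In bulk RNA, fewer cells of a type and less RNA per cell cannot be told apart.

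**Figure D1:**
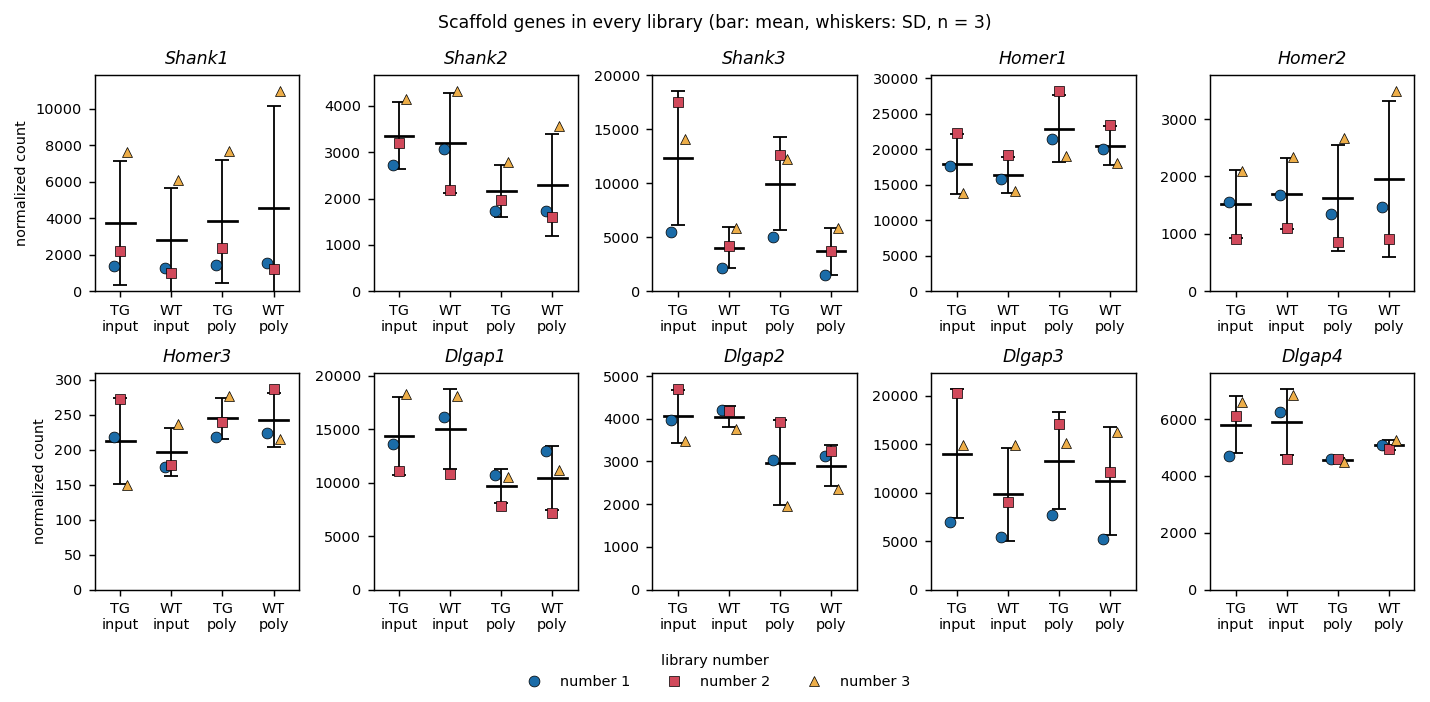
Normalized counts of the 10 scaffold genes in every library, with TG and WT of the input and polysome (poly) fractions along each x axis; points are libraries marked by number, bars are means and whiskers are SD (n = 3), cut at 0 where they run below it. Shank3 stands higher in TG within each number, and Shank1 is far higher in the libraries of number 3 in all 4 groups.

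Per kilobase of exon, Dlgap3 and Homer1 had the highest mean levels and Homer2 and Homer3 the lowest in all 4 groups. Dlgap3 had 3106 ± 1479 normalized counts per kb in TG input and 2172 ± 1062 in WT input libraries (SD, n = 3 each). Homer1 had 1492 ± 352 per kb in TG input and 1365 ± 211 in WT input libraries. The spreads of these 2 genes overlapped, and with the longest coding transcript as the length Homer1 ranked above Dlgap3 in WT input, TG polysome and WT polysome libraries.

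Shank3 had rank 3 per kb in both TG groups, rank 6 in WT input and rank 7 in WT polysome libraries. Its level was 1345 ± 676 per kb in TG input and 440 ± 204 in WT input libraries (SD, n = 3 each). Dlgap1, Dlgap4 and Dlgap2 had 801 ± 204, 686 ± 118 and 659 ± 99.6 per kb in TG input libraries. In WT input libraries they had 839 ± 211, 697 ± 139 and 658 ± 39.5 per kb. By exon length these 3 Dlgap genes lay within each other's spread. With the longest coding transcript as the length, Dlgap1 stood apart, at 1998 per kb in TG input and 2093 in WT input libraries. Dlgap4 then had 1196 and 1215 per kb, and Dlgap2 had 900 and 899. By that length Shank3 ranked 4 in TG input, 3 in TG polysome and 6 in both WT groups.

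By exon length Shank1, Shank2, Homer2 and Homer3 formed the lower end in every group but WT polysomes. There Shank3, at 401 per kb, was below Shank1, at 436. Shank1 had 354 ± 322 per kb in TG input and 265 ± 271 in WT input libraries, and Shank2 had 312 ± 67.3 and 297 ± 100.1 per kb in the same groups. Homer2 had 121 ± 47.1 per kb in TG input and 135 ± 48.8 in WT input libraries. Homer3 had 61.9 ± 17.9 per kb in TG input and 57.1 ± 9.96 in WT input libraries. The means of Shank1 and Shank2 did not differ beyond their spread. In both genotypes Shank1 was below Shank2 per kb in input libraries 1 and 2 and above it in input library 3. Every Homer2 group mean was above the Homer3 mean, but not every library was. In number 2 Homer3 was above Homer2 in TG input libraries, at 79.1 against 72.6 per kb. The same held in TG polysomes (69.5 against 68.4) and WT polysomes (83.4 against 71.9), but not in WT input (51.8 against 87.2). Homer1 made up 88.6 ± 3.94% of the Homer signal per kb in TG input and 87.4 ± 4.84% in WT input libraries.

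Shank3, the gene carried by the transgene, had 5456, 17500 and 14107 normalized counts in TG input libraries 1, 2 and 3, against 2121, 4162 and 5858 in WT input libraries 1, 2 and 3. In the polysome fraction it had 5012, 12626 and 12252 in TG libraries, against 1501, 3702 and 5848 in WT libraries. The lowest TG library, number 1, fell below the highest WT library, number 3, in both fractions, so the groups overlapped. Within each number TG was higher, by 2.57, 4.20 and 2.41-fold in input and by 3.34, 3.41 and 2.09-fold in polysomes.

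The Shank3 difference was 1.57 ± 0.49 on the log2 scale in input (SE, limma adjusted p = 1.00) and 1.53 ± 0.52 in polysomes (limma adjusted p = 1.00). Neither passed the test without the block. With the replicate number as a block the SE fell to 0.15 in both, with a limma adjusted p of 0.0631 in input and of 0.0205 in polysomes. Shank3 was then the 1 gene called among 16312 in polysomes (0.00613%), while 0 of 16341 were called in input (0%). The block fits model the variance as a trend on level and were not run without that trend, so the dependence of this call on it was not tested. A difference of 1 or more on the log2 scale in all 3 pairs was met by 8 of 16341 genes (0.049%) in input and by 2 of 16312 (0.0123%) in polysomes, Shank3 among them in both. This cut was not among the planned tests and is given as a description. Shank3 came nearest to it in polysome pair 3, at 1.07. Block fits that left out the libraries of 1 number were chosen after seeing the data. Few libraries remain in them, so they lean on the variance modelled over all genes and their adjusted p shifted widely. In polysomes Shank3 was not called without number 2 (1.40 on the log2 scale, limma adjusted p = 0.603). It was called without number 1 or 3 (limma adjusted p = 0.00536 and 6.95e-16), among 3 and 89 genes called. In input it was called without number 1, 2 or 3 (limma adjusted p = 0.0115, 0.00132 and 0.013).

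Shank3 also made up a larger mean share of the Shank signal per kb in TG. Its share was 65.9 ± 11.4% in TG input and 45.3 ± 13.2% in WT input libraries (SD, n = 3 each), with 66.4 ± 9.96% in the TG polysomes and 42.2 ± 15.6% in the WT polysomes. Within each of the 3 numbers the share was higher in TG in both fractions. The input and polysome libraries of a number share a name, so the fractions are not separate evidence. The ranges over libraries overlapped: 58.1% to 79.0% in TG input against 36.1% to 60.4% in WT input libraries, and 57.4% to 77.1% in TG polysome against 31.6% to 60.2% in WT polysome libraries.

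**Figure D2:**
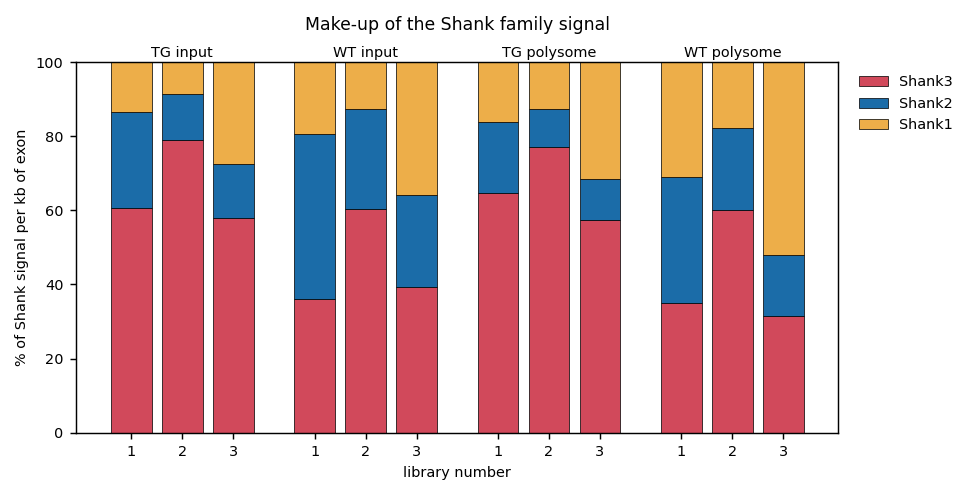
Share of each Shank gene in the summed Shank signal per kb of exon (y axis, %), in each library (x axis, number) of the 4 groups. Shank3 made up 58.1% to 79.0% in TG input and 36.1% to 60.4% in WT input libraries, and number 2 had the highest Shank3 share in every group.

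Shank3 and Dlgap3, whose products bind each other, went up and down together between library numbers. The ratio of Shank3 to Dlgap3 per kb therefore varied little within a group: 0.385, 0.425 and 0.466 in TG input, against 0.191, 0.227 and 0.193 in WT input libraries 1, 2 and 3. In polysomes it was 0.322, 0.363 and 0.399 in TG, against 0.141, 0.149 and 0.177 in WT libraries. The TG and WT groups did not overlap in either fraction. This pair was chosen after its values were seen, so the ratio is given as a description with no test.

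None of the other 9 members was called between TG and WT in either fraction, with or without the block. Over all genes, limma without the block called 0 of 16341 in input and 0 of 16312 in polysomes, with 80 (0.49%) and 53 (0.325%) at an unadjusted p under 0.05. The median difference of these 9 members was 0.08 on the log2 scale in input and -0.01 in polysomes, beside -0.01 and 0.01 over all genes tested.

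Among the other Shank genes, Shank1 had 1375, 2179 and 7603 normalized counts in TG input, against 1301, 986 and 6077 in WT input libraries. Its polysome values were 1438, 2371 and 7684 in TG, against 1522, 1241 and 10984 in WT libraries. Library 3 was the high one in each group and the genotypes overlapped. The differences were 0.52 ± 0.79 in input and 0.11 ± 0.87 in polysomes on the log2 scale (SE). Shank1 and Shank3 were the members higher in TG in all 3 input pairs, as were 9.52% of genes. Shank2 differed by 0.11 ± 0.27 in input and by -0.01 ± 0.32 in polysomes on the same scale.

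Homer1 had 17616, 22208 and 13784 normalized counts in TG input, against 15769, 19115 and 14149 in WT input libraries. Its log2 difference was 0.11 ± 0.21 in input and 0.15 ± 0.21 in polysomes (SE), and the groups overlapped. Homer1 and Shank3 were the members higher in TG in all 3 polysome pairs, as were 11.1% of genes. Homer2 had 1559, 917 and 2103 in TG input, against 1672, 1100 and 2331 in WT input libraries, and was lower in TG in all 3 pairs of both fractions. Its log2 differences were -0.17 in input and -0.19 in polysomes, with an SE of 0.36 and 0.53 without the block and of 0.11 and 0.12 with it. They passed in neither fit, and 10.2% of genes in input and 8.34% in polysomes were lower in all 3 pairs. Homer3, the least abundant member, differed by 0.08 ± 0.27 in input and 0.02 ± 0.20 in polysomes on the log2 scale.

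Dlgap3 had 6973, 20261 and 14894 normalized counts in TG input, against 5460, 9034 and 14963 in WT input libraries. In polysomes it had 7660, 17129 and 15109 in TG, against 5233, 12186 and 16291 in WT libraries. The groups overlapped, and the input difference of 0.50 ± 0.46 on the log2 scale (SE) was led by number 2, in which TG was 2.24-fold higher. Dlgap4 had 4600, 4609 and 4482 in TG polysomes, against 5069, 4928 and 5263 in WT polysomes, so its polysome groups did not overlap. That difference was small, -0.16 ± 0.14 on the log2 scale, and 2.37% of genes had polysome groups that did not overlap. In input no member's groups were free of overlap, as against 2.62% of genes that were. Dlgap1 and Dlgap2 differed by -0.06 ± 0.25 and -0.01 ± 0.16 in input, and by -0.08 ± 0.25 and -0.01 ± 0.27 in polysomes.

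**Figure D3:**
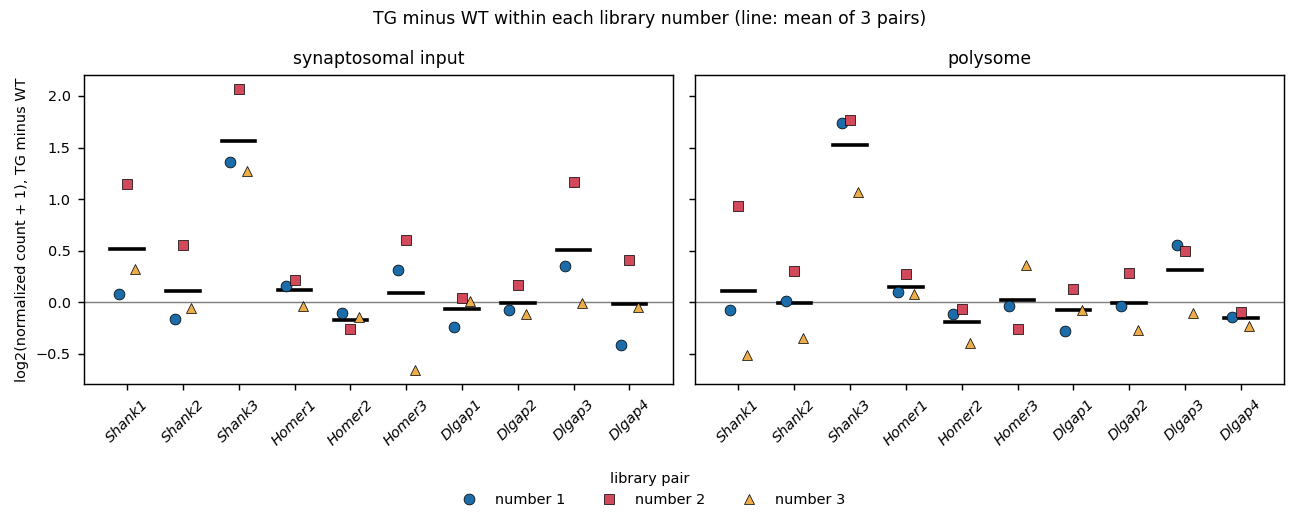
Differences in log2(normalized count + 1), TG minus WT (y axis), for each scaffold gene (x axis) within each library number, in input and polysome libraries; lines are means of 3 pairs. Shank3 is above 1 in all 6 pairs, and the only other values above 1 are those of Shank1 and Dlgap3 in input pair 2.

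Medium spiny neuron markers were higher in TG for 15 of 15 genes in both fractions, by a median of 0.21 in input and 0.23 in polysomes on the log2 scale, with none called. Their summed level was 315280 to 609614 in TG input against 259625 to 537325 in WT input libraries, and 330162 to 645982 in TG polysome against 266197 to 599024 in WT polysome libraries. Their part in the Shank3 and Dlgap3 differences was not tested.

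Partners of the 3 families were described from lists of genes whose products bind them. Of 14 Shank partners, 13 Homer partners and 14 Dlgap partners, limma called 0 between TG and WT in input, in polysomes and in the interaction, with or without the block. In input the genes of smallest p in each list were Abi1 at 0.16 ± 0.22, Ryr1 at 0.45 ± 0.30 and Dlg2 at 0.19 ± 0.21 on the log2 scale (SE). In polysomes the smallest in the Shank and Homer lists were Sharpin at 0.14 ± 0.18 and Oprd1 at 0.31 ± 0.32. Dlgap5, a mitotic relative outside the synaptic families, differed by -0.03 ± 0.75 in input and by 0.46 ± 0.55 in polysomes.

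Whether the genotype difference itself changed between polysomes and input was asked with the interaction, and no member was called. Over all genes limma called 0 of 16962 (0%), with 94 (0.554%) at an unadjusted p under 0.05. The Shank3 interaction was -0.04 ± 0.80 on the log2 scale (SE). Shank1 had the largest estimate in size among the members, -0.40 ± 1.32, and 13.9% of genes had one larger in size. The smallest p in the Shank and Homer partner lists belonged to Sipa1l3 at -0.11 ± 0.37 and Ryr1 at -0.28 ± 0.58, and Dlgap5 stood at 0.50 ± 0.98.

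Between polysomes and input the members split. Shank2, Shank3, Dlgap1 and Dlgap2 were lower in polysomes in all 6 pairs, as were 24.1% of all genes. Shank1 and Homer1 were higher in all 6, as were 25% of genes. Some of these pairs were nearly level: Shank3 stood at -0.0024 in WT pair 3 and Shank1 at 0.0154 in TG pair 3, on the log2 scale. Without the block limma called 0 members in TG, where it called 18.1% of genes, and 0 in WT, where it called 14%, and 0 members had an unadjusted p under 0.05, against 32.8% of genes in TG and 30.2% in WT. With the replicate block it called 4 members in TG, beside 33.2% of genes, and 4 in WT, beside 29.8%. The block fit was not run here without the variance trend either. Among genes called higher with the block were 16.7% in TG and 13.9% in WT, with 1 member in each, and called lower were 16.6% and 15.9%, with 3 members in each. The share of members called, 4 of 10, lay near that of all genes in each genotype. Leaving out the libraries of number 2 in the block fit gave 0 member calls in both genotypes, while the genes called fell to 1321 in TG, against 5638 in the full block fit, and to 375 in WT, against 5052. The log2 differences there were still -0.61 in TG and -0.55 in WT for Shank2, and -0.61 and -0.55 for Dlgap2. Mitochondrial ribosomal RNA took 23.1% to 34.0% of the signal in polysome and 39.1% to 46.8% in input libraries, and its part in these differences was not tested.

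Shank2 had 1736, 1974 and 2797 normalized counts in TG polysomes, against 2729, 3205 and 4152 in TG input libraries. In WT it had 1723, 1598 and 3572 in polysomes, against 3063, 2188 and 4331 in input. The ranges overlapped in both genotypes. The log2 difference was -0.64 ± 0.13 in TG and -0.52 ± 0.13 in WT with the block (limma adjusted p = 0.00731 and 0.0186).

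Dlgap1 had 10688, 7819 and 10564 in TG polysomes, against 13625, 11093 and 18278 in TG input libraries, with no overlap. In WT it had 13000, 7140 and 11154 in polysomes, against 16145, 10811 and 18090 in input, with overlap. Groups did not overlap for 35.6% of genes in TG and 36.2% in WT. Its log2 difference with the block was -0.55 ± 0.13 in TG and -0.54 ± 0.13 in WT (limma adjusted p = 0.013 and 0.0173).

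Dlgap2 had 3041, 3935 and 1945 in TG polysomes, against 3974, 4701 and 3483 in TG input libraries. In WT it had 3128, 3236 and 2345 in polysomes, against 4196, 4178 and 3766 in input, and here the groups did not overlap. Its log2 difference with the block was -0.49 ± 0.14 in both TG and WT (limma adjusted p = 0.0251 and 0.0288).

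Homer1 had 21379, 28234 and 19068 in TG polysomes, against 17616, 22208 and 13784 in TG input libraries. In WT it had 19963, 23403 and 18004 in polysomes, against 15769, 19115 and 14149 in input. The ranges overlapped, and each polysome library was above the input library of its number. Homer1 was called with the block in TG, at 0.36 ± 0.11 on the log2 scale (limma adjusted p = 0.032), and not in WT, at 0.33 ± 0.11 (limma adjusted p = 0.0514). Shank1 was called with the block in WT, at 0.47 ± 0.14 (limma adjusted p = 0.0327), and not in TG, at 0.07 ± 0.14 (limma adjusted p = 0.74). The interaction of neither gene passed.

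The remaining members were not called in either genotype. The log2 difference with the block was -0.27 ± 0.13 in TG and -0.22 ± 0.13 in WT for Shank3, 0.02 ± 0.18 and 0.04 ± 0.18 for Homer2, and 0.24 ± 0.23 and 0.30 ± 0.23 for Homer3. Dlgap3 stood at -0.03 ± 0.13 in TG and 0.16 ± 0.13 in WT. Dlgap4 stood at -0.33 ± 0.15 in TG, where its groups did not overlap, and at -0.19 ± 0.15 in WT.

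**Figure D4:**
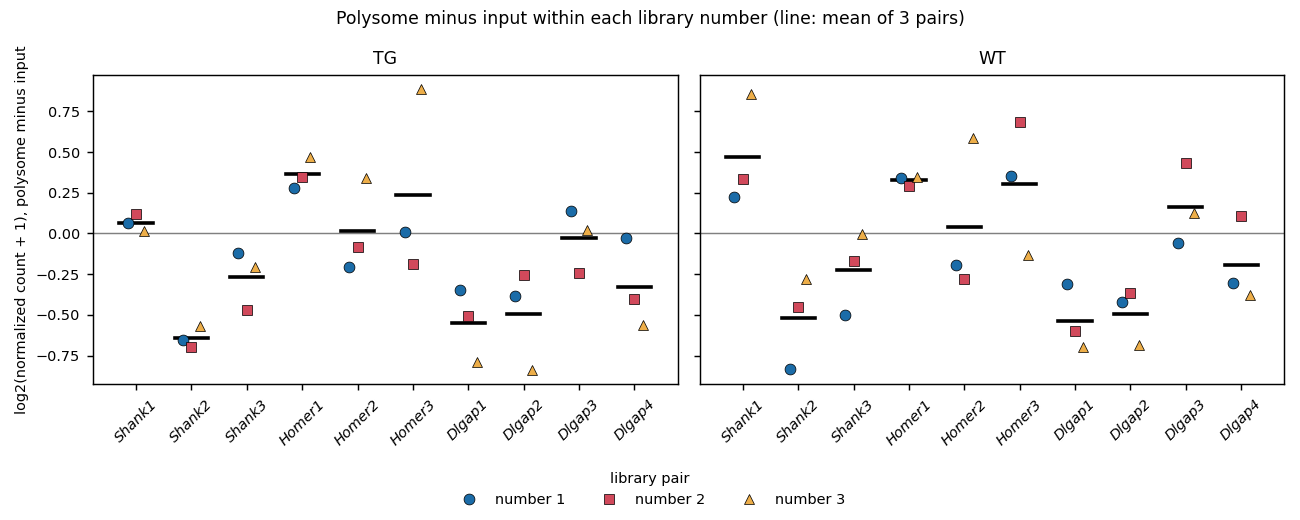
Differences in log2(normalized count + 1), polysome minus input (y axis), for each scaffold gene (x axis) within each library number, in TG and WT; lines are means of 3 pairs. Homer1 lies above 0 and Shank2, Dlgap1 and Dlgap2 lie below 0 in all 6 pairs.

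Homer partners were mostly lower in polysomes, with medians of -0.66 in TG and -0.66 in WT on the log2 scale, beside 0.03 and 0.03 over all genes. Without the block limma called 6 of 13 lower in TG and 5 of 13 in WT and none higher, and with it 10 of 13 in each. Over all genes, 9.86% in TG and 8.59% in WT were called lower without the block, and 16.6% and 15.9% with it. Ryr2, a calcium release channel, fell, with log2 differences of -1.56 in TG and -1.51 in WT (limma adjusted p = 0.003 and 0.00412). Dnm3, a dynamin that Homer links to the postsynaptic density, fell as well, at -1.12 in TG and -1.02 in WT (limma adjusted p = 0.00534 and 0.00931).

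Of 14 Shank partners, 3 were called lower in TG and 2 in WT without the block, and 5 and 3 with it. No Shank partner was called higher without the block, and 2 were in each genotype with it. Baiap2 (IRSp53), an organiser of actin, fell, with log2 differences of -1.20 in TG and -1.14 in WT (limma adjusted p = 0.0291 and 0.0412). Sptan1 (alpha-II spectrin) fell too, at -0.72 in TG and -0.75 in WT (limma adjusted p = 0.0229 and 0.0241), and Cttn (cortactin) was called lower in TG, at -0.97 (limma adjusted p = 0.041).

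Of 14 Dlgap partners, 5 were called lower and 1 higher in TG, and 4 lower and 2 higher in WT, without the block. Over all genes 8.19% were called higher in TG and 5.36% in WT. Kif1a, a kinesin motor, fell, with log2 differences of -1.47 in TG and -1.29 in WT (limma adjusted p = 0.00887 and 0.0177). Magi2, a membrane scaffold, fell too, at -0.97 in TG and -0.997 in WT (limma adjusted p = 0.00482 and 0.00516). Fbxo2, a ubiquitin ligase subunit, was higher by 1.16 in TG and 0.79 in WT (limma adjusted p = 0.00634 and 0.0325), and Dynll2, a dynein light chain, by 0.66 in WT (limma adjusted p = 0.0438). Dlgap5 stood at -0.41 ± 0.69 in TG and -0.90 ± 0.69 in WT and was not called.

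The median member differed more between library numbers than the median gene did. With the genotype in the fit, a limma F-test called 7 of 10 in input, beside 20.5% of genes, and 7 of 10 in polysomes, beside 26.5%. Homer3 and Dlgap4 were called in neither fraction, Dlgap2 was not called in input and Homer1 was not called in polysomes. The median of the largest difference between numbers was 0.71 in input and 0.80 in polysomes over the members, against 0.47 and 0.45 over all genes, on the log2 scale. The calls rest on modelling the variance as a trend on level: without it 0 members were called in input and 1 in polysomes, and the genes called dropped to 17 and 92, against 3344 and 4318 with it. Leaving out TG input library 3 gave 4 member calls in input, among 1397 genes called.

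The same number was highest in all 4 groups for 4 of 10 members, as for 22% of genes, and lowest in all 4 for 6 of 10, as for 24% of genes. Shank1 showed the widest spread. It was higher in number 3 than in number 1 by 2.34 in input and by 2.63 in polysomes on the log2 scale (limma F-test adjusted p = 0.0016 and 0.000943). Shank1, Shank2 and Homer2 were highest in number 3 in all 4 groups, as were 8.22% of genes. Shank3 and Dlgap3 were lowest in number 1 in all 4 groups, as were 4.08% of genes.

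Homer1 was highest in number 2 in all 4 groups, as were 10.5% of genes. Homer2 and Dlgap1 were lowest in number 2 in all 4, as were 9.66% of genes, and Homer1 and Dlgap2 were lowest in number 3, as were 10.3%. Homer1 and Homer2 thus ran in opposite orders. Homer2 was higher in number 3 than in number 2 by 1.14 in input and by 1.78 in polysomes, whereas Homer1 differed by -0.56 and -0.47 between the same numbers, all on the log2 scale.

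**Figure D5:**
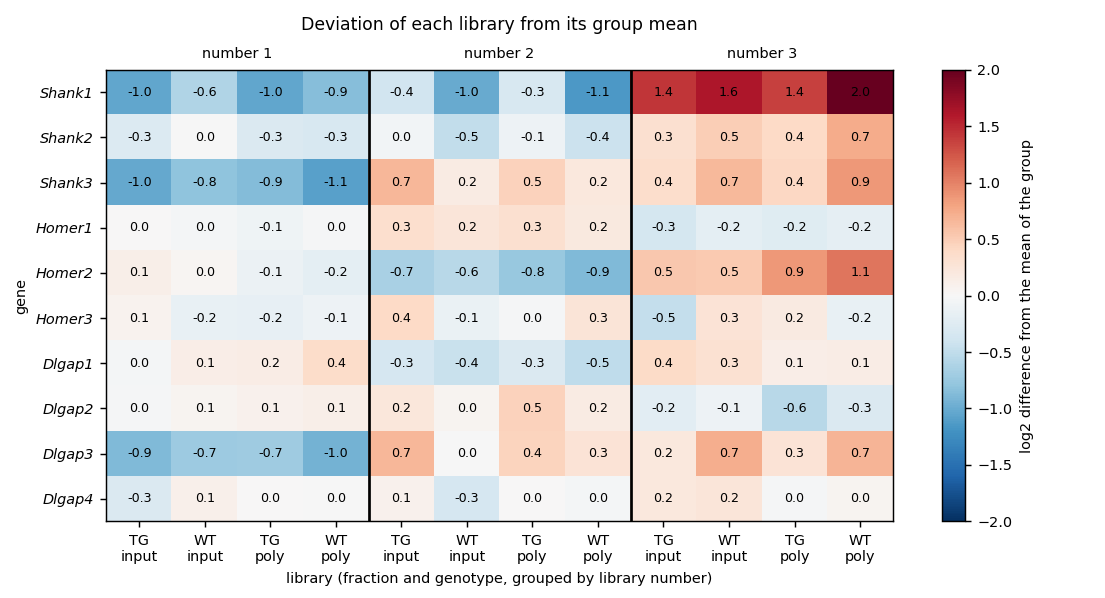
Each library's log2(normalized count + 1) minus the mean of its group (colour and printed value), for the 10 scaffold genes (rows) and the 12 libraries (columns, grouped by library number). Shank1 is far above its group means in number 3, and Shank3 and Dlgap3 are below theirs in number 1, in all 4 groups.

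Markers of several cell types moved with the number as well. The summed medium spiny neuron markers were 259625 to 358223 in number 1, 537325 to 645982 in number 2 and 266197 to 330162 in number 3. The 10 cortical excitatory markers ran the other way, with 69968 to 112445 in number 1, 34579 to 58638 in number 2 and 79319 to 148583 in number 3. The 8 oligodendrocyte markers were highest in number 2, at 356597 to 432437, and the 5 blood markers in number 3, at 7433 to 11078. The part of these cell types in the members' number pattern was not tested.

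Genes whose log2 levels ran most like those of the members over the 12 libraries were found among 14311 others. For Shank3 they were Rnf150 (Pearson r = 0.90), Has3 (r = 0.89) and Arhgef12 (r = 0.88). For Shank1 it was Adcy1 (r = 0.98), for Shank2 Grip2 (r = 0.97) and for Dlgap3 Agap2 (r = 0.98), a Homer partner on the list above. For Homer1 it was Abhd17b (r = 0.97), for Homer2 Tub (r = 0.97) and for Homer3 Tor4a (r = 0.88). For Dlgap1 it was Rxfp1 (r = 0.99), for Dlgap2 Dido1 (r = 0.98) and for Dlgap4 Usp27x (r = 0.92). These libraries share numbers and fractions, so the values describe likeness and carry no p.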

How the data were processed

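The authors deposited 1 table of normalized counts per gene for 12 libraries (a scaled signal, not whole reads). The library kit was a stranded one for total RNA, per the labels' protocols. Salmon 1.1.0, DESeq2 1.26.0, R 3.6.2 and the GRCm38 build are named in the submitters' processing notes. With 1 read's worth estimated from the low values, 33.0% to 45.8% of values up to 20 reads in input libraries and 36.8% to 45.6% in polysome libraries lay within 0.1 of a whole number, so reads were not recovered and no count test was run. Depth was estimated at between 62285179 and 85544007 reads for input libraries and between 76631277 and 102076229 for polysome libraries.

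Gene names, lengths and sequences came from GENCODE M21, which matched 21465 of 21492 identifiers. Values were tested as log2(value + 1) with limma 3.58.1 (R 4.3.3), using a variance trend, a filter of 10 in at least 3 fitted libraries and Benjamini-Hochberg adjustment over all genes tested. Genotype and library number were tested within the 6 libraries of a fraction. Polysomes against input and the interaction came from 1 fit of 12. There the block joined the input and polysome libraries of 1 genotype and number, which share a column name. The fit without the block left that pairing out. Between TG and WT the block was the number alone.

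The members and lists were chosen with earlier results of these data known. All members were named in every comparison. From each partner list, up to 2 called genes with the largest rise and 2 with the largest fall were named, or, with no call, the gene of smallest p (1 such gene is not reported here). Pairing by library number rests on the shared numbers and the data. Deviations from group means correlated at 0.24 to 0.55 over genes in 18 same-numbered pairs of libraries. The 36 differently numbered pairs gave -0.41 to -0.00088. The deviations of a group cancel for each gene by construction. Positive same-numbered values therefore draw the others negative, and the negative range is no separate support for the pairing. What a number marks is not in the labels. Alternatives covered scaling, filter, pseudocount, variance trend, the block and each library left out.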

Additional observations from a re-analysis of the deposited data

How the results depend on the processing

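TMM scaling, the other filters and pseudocounts of 0.5 and 10 turned no member's direction in the 5 comparisons of groups, and gave the same number of member calls in these and in the tests of library number, except that no filter on low values gave 5 for the library number in input. The fit of all 12 libraries, run for TG against WT, and the fit of 1 genotype's 6, run for polysomes against input, changed neither. With the replicate block, calls of members moved to 1 between TG and WT in polysomes, to 4 between polysomes and input in TG and to 4 in WT, and no other call changed. Without the variance trend the library number gave 0 calls in input and 1 in polysomes. The block was not run without that trend. The causes were not tested.

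Fits with the block that left out all libraries of 1 number were chosen after seeing the data. Without number 1, 2 or 3 they called 1, 1 and 1 members between TG and WT in input, 1, 0 and 1 in polysomes, 2, 0 and 2 between polysomes and input in TG, and 1, 0 and 3 in WT. The genes called in those fits were 1, 6 and 2 in input, 3, 0 and 89 in polysomes, 3490, 1321 and 4159 in TG, and 2841, 375 and 3669 in WT. They turned the log2 sign of members that had not been called. Between TG and WT in input these were Homer3 (-0.0275), Dlgap1 (0.026), Dlgap2 (0.0287) and Dlgap4 (0.18) without number 1, Shank2 (-0.11) and Homer3 (-0.18) without number 2, and Dlgap2 (0.0459) without number 3. In polysomes they were Dlgap1 (0.0263) and Dlgap2 (0.00619) without number 1, Shank1 (-0.30) without number 2, and Shank2 (0.16), Homer3 (-0.15) and Dlgap2 (0.12) without number 3. In the interaction they were Homer3 (0.0748) and Dlgap1 (0.000271) without number 1, and Shank3 (0.0879), Homer3 (0.34), Dlgap3 (0.0474) and Dlgap4 (0.0463) without number 2. Without number 3 the interaction turned for Shank3 (0.0374), Homer1 (-0.00327), Homer2 (0.0911), Dlgap1 (0.0282) and Dlgap2 (0.0747). Between polysomes and input they were Dlgap3 (0.0781) without number 2 and Homer2 (-0.14) and Homer3 (-0.0901) without number 3 in TG, and Homer2 (-0.24) without number 3 in WT.

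Leaving out 1 library at a time gave 0 calls of members between TG and WT in both fractions and in the interaction, 0 to 1 between polysomes and input in TG (Dlgap2, without TG polysome library 2) and 0 in WT. It gave 4 to 8 calls for the library number in input and 5 to 7 in polysomes, among 1397 to 4233 and 1722 to 4494 genes called. Shank3 between TG and WT ran over 1.16 to 2.08 in input and 0.98 to 1.96 in polysomes on the log2 scale. Ranges that crossed 0 between TG and WT in input were Shank1 -0.20 to 1.32, Shank2 -0.14 to 0.36, Homer1 -0.0576 to 0.29, Homer2 -0.45 to 0.16, Homer3 -0.11 to 0.32, Dlgap1 -0.28 to 0.11, Dlgap2 -0.12 to 0.0968 and Dlgap4 -0.19 to 0.13. In polysomes they were Shank1 -0.57 to 1.11, Shank2 -0.22 to 0.36, Homer1 -0.0104 to 0.27, Homer2 -0.63 to 0.34, Homer3 -0.073 to 0.15, Dlgap1 -0.33 to 0.10, Dlgap2 -0.24 to 0.27 and Dlgap3 -0.17 to 0.67. In the interaction all 10 crossed 0, with Shank1 -1.21 to 0.60, Shank2 -0.37 to 0.25, Shank3 -0.59 to 0.39, Homer1 -0.14 to 0.21, Homer2 -0.46 to 0.51, Homer3 -0.30 to 0.13, Dlgap1 -0.26 to 0.21, Dlgap2 -0.23 to 0.27, Dlgap3 -0.67 to 0.17 and Dlgap4 -0.28 to 0.0321. Between polysomes and input they were Shank1 -0.62 to 0.78, Shank3 -0.77 to 0.17, Homer2 -0.42 to 0.39 and Dlgap3 -0.47 to 0.33 in TG, and Shank1 -0.53 to 1.28, Shank3 -0.66 to 0.32, Homer2 -0.50 to 0.48 and Dlgap3 -0.20 to 0.64 in WT.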

Other observations

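The partner lists also moved with the library number. A limma F-test called 9 of 14 Shank partners in input and 6 of 14 in polysomes, 6 of 13 Homer partners in each fraction, and 3 and 4 of 14 Dlgap partners. The share over all genes was 20.5% in input and 26.5% in polysomes. Dlgap5 was called in neither.

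Markers of other cell types were compared between TG and WT as lists, and limma called none of their genes. Of 10 cortical excitatory markers 1 was higher in TG in input and 2 in polysomes, with medians of -0.17 and -0.15 on the log2 scale. Number 3 ran the other way for these cortical markers. Their medians of pairs 1, 2 and 3 were -0.53, -0.25 and 0.24 in input and -0.36, -0.22 and 0.11 in polysomes. All 8 oligodendrocyte markers were higher in TG in input and 7 of 8 in polysomes, with medians of 0.11 and 0.07. All 5 blood markers were higher in TG in both fractions, with medians of 0.18 and 0.29. The medians in input and polysomes were 0.03 and 0.04 for astrocytes, -0.02 and 0.04 for microglia, -0.07 and -0.04 for endothelial and mural cells, and -0.45 and -0.40 for choroid and ependyma. The last sign came from number 2: the medians of pairs 1, 2 and 3 were 0.69, -2.15 and 0.57 in input and 0.20, -2.01 and 0.62 in polysomes. Over all libraries the medians in input and polysomes were 0.13 and 0.14 for midbrain dopaminergic neurons and -0.06 and -0.06 for nuclear RNA. Pair 2 ran the other way in these lists too. Its medians were -0.40 and -0.13 for midbrain dopaminergic neurons and 0.24 and 0.53 for nuclear RNA.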
